A study of Mus musculus with 24 samples.

Results

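The genes described here encode the constitutive proteasome: every gene whose symbol is Psma, Psmb, Psmc or Psmd followed by a number, without the inducible and thymic catalytic subunits Psmb8, Psmb9, Psmb10 and Psmb11. The rule took 35 of the 26267 genes in the table, 15 of the core particle (Psma and Psmb) and 20 of the regulatory particle (Psmc and Psmd), and used no measured value. The RNA, polyadenylated, came from LSK cells, mouse bone marrow cells sorted as negative for lineage markers and positive for Sca-1 and Kit, which include blood stem cells and early progenitors. Mice lacked Fancg, a gene of the Fanconi anaemia pathway of DNA crosslink repair (FancgKO), lacked it and carried an Mdm4 transgene (FancgKO_Mdm4Tg), carried the transgene only (Mdm4Tg), or were wild type (WT). They had received PBS or poly(I:C), which mimics viral double-stranded RNA and sets off an interferon response. With poly(I:C) there were 3 FancgKO, 2 FancgKO_Mdm4Tg, 2 Mdm4Tg and 3 WT libraries, and with PBS 4 FancgKO, 3 FancgKO_Mdm4Tg, 3 Mdm4Tg and 4 WT libraries, 24 in all. The labels give no dose, timing, age, strain, transgene promoter or pooling, and do not say that replicates came from separate animals, so p-values measure the spread between these samples.

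The 26S proteasome is the enzyme that degrades proteins tagged with ubiquitin. Its core particle is a barrel of stacked alpha and beta rings with the proteolytic sites on the inside, and its regulatory particle, a base with a ring of ATPases and a lid, recognises the tagged protein, removes the ubiquitin and threads the chain into the barrel. Interferon replaces the constitutive catalytic subunits with the inducible ones in many cells, and blood stem cells are known for keeping their protein synthesis low.

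Each library holds a number that its title starts with, and values below follow these numbers in ascending order: 6, 7 and 8 for poly(I:C) in FancgKO and WT, 7 and 8 for poly(I:C) in FancgKO_Mdm4Tg and Mdm4Tg, 2, 4, 6 and 7 for PBS in FancgKO, 2, 6, 7 and 8 for PBS in WT, and 2, 7 and 8 for PBS in the others. The titles of the libraries numbered 2, 4 and 8 share an ending whose meaning is not given. The libraries held 807686 to 8229715 reads, with a median of 2583130. The 4 poly(I:C) libraries numbered 8 were the deepest, with 5491225 to 8229715 reads. The markers of the sort gate and of stem cells were present in all libraries, with a sum of 3785 to 6328 with poly(I:C) and 5147 to 8866 with PBS, and 0 of 10 rose and 8 fell with poly(I:C). The 9 myeloid progenitor markers summed to 5830 to 23190 with poly(I:C) and 1481 to 13910 with PBS, and 9 of 9 rose. Of 7 mature granulocyte markers 6 were under 10 in every library, as were all 4 T cell markers. The 7 granulocyte markers summed to 0.834 to 33.4 with poly(I:C) and 0 to 10.0 with PBS, and the 1 tested rose. The 4 monocyte and macrophage markers summed to 241 to 1045 with poly(I:C) and 95.7 to 505 with PBS, and 3 of 4 rose. Of 9 listed erythroid markers 7 were measured, with sums of 182 to 1008 with poly(I:C) and 35.2 to 317 with PBS, and 4 of 4 tested rose, while Hba-a1, Hba-a2 and Alas2 were under 10 in every library. The 6 B cell markers summed to 24.5 to 35.8 with poly(I:C) and 21.9 to 71.8 with PBS, and 0 of 3 tested were called.

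All 35 genes reached the filter for testing, which asked for 10 normalized counts or more in 2 or more libraries and which 12628 genes reached. Levels between genes are compared as the mean normalized count per kb of the principal transcript over all 24 libraries. On that scale the alpha ring genes Psma1 at 348, Psma7 at 241 and Psma6 at 239 stood highest, followed by the lid deubiquitinase gene Psmd14 at 180.2. The lowest were Psma8, the alpha subunit of testis, at 7.12, the chaperone gene Psmd9 at 19.0 and Psmb5 at 27.9. Psmb5 encodes the chymotrypsin-like site, and the other two catalytic genes, Psmb6 for the caspase-like and Psmb7 for the trypsin-like site, stood at 116 and 149. Without Psma8 and the 3 chaperone genes, the 14 core genes had a median level of 135 per kb and the 17 regulatory genes of 87.3 per kb. With all annotated exon bases as the length the same medians were 58.9 and 55.4, so the gap between the particles depended on the length used. The order of genes depended on it too. By all exon bases Psma6 stood highest at 201.5, ahead of Psma1 at 141.7, while Psma7 had rank 10 and Psmb5 rank 31.

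**Figure D1:**
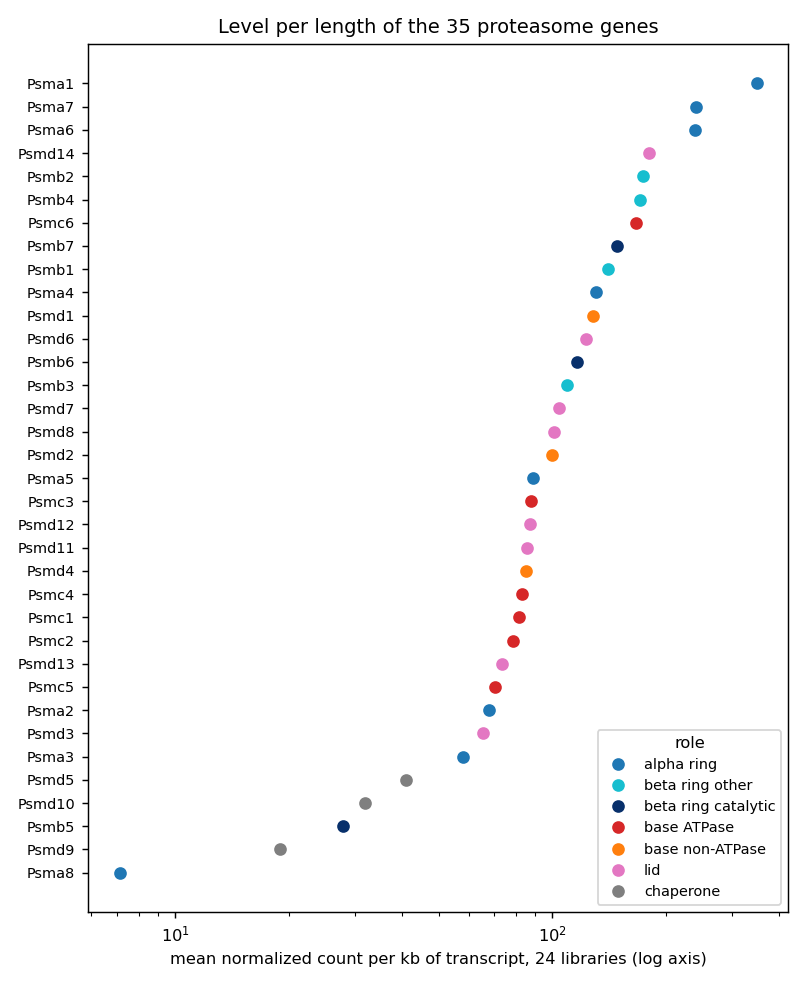
Mean normalized count per kb of transcript (log axis) of the 35 genes over 24 libraries, coloured by role, 1 point per gene. Psma1 stands highest at 348 per kb, and Psmb5, the chaperone genes and Psma8 lie at the low end.

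The proteasome genes were higher with poly(I:C) than with PBS as a group. Averaged over the 4 genotypes, 22 of 35 genes rose and 0 fell at a limma adjusted p under 0.05, against 11.9% of all 12628 genes that rose. The fitted difference was positive for 35 of 35, against 51.8% of all genes, and its median was 0.36 on the log2 scale, against 0.01 over all genes. The core particle had 10 of 15 genes called and a median difference of 0.38, and the regulatory particle had 12 of 20 called and a median of 0.32. Fold differences are on the scale of log2(normalized count + 1). Bulk RNA cannot tell a change in the mix of LSK cells from a change of RNA per cell. The myeloid progenitor, monocyte and erythroid markers and the 1 tested granulocyte marker moved with this comparison, and their part in the result was not tested.

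The call count rested on few libraries, and the share of all genes called higher moved with it. Without single libraries it ran from 5 to 25 of 35, while the share of all genes ran from 5.95% to 14.4%. It was 5 without FancgKO_Mdm4Tg poly(I:C) number 8 (5.95% of all genes), 12 without FancgKO poly(I:C) number 6 (8.01%), 13 without WT poly(I:C) number 6 (9.00%), and 14 without Mdm4Tg poly(I:C) number 7 (8.97%) or number 8 (8.78%). The median difference stayed between 0.30 and 0.41 in these fits, and no gene was called lower. Without all 4 poly(I:C) libraries numbered 8 the fit called 2 of 35, against 3.75% of all genes, with a median of 0.24. With reads thinned to the smallest library it called 15, against 7.21% of all genes, with a median of 0.37.

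By role, all 4 non-catalytic beta ring genes rose (Psmb1, Psmb2, Psmb3 and Psmb4, median 0.47), and 5 of 6 base ATPases rose (median 0.39, Psmc6 at 0.22 not called). In the lid 5 of 8 were called (Psmd3, Psmd7, Psmd8, Psmd12 and Psmd13, median of the 8 genes 0.35). Of the base scaffolds and ubiquitin receptor, Psmd1 and Psmd2 were called and Psmd4 was not, with a median of 0.31. Of the alpha ring 4 of 8 were called (Psma1, Psma2, Psma6 and Psma7, median of the 8 genes 0.32), and of the catalytic genes Psmb5 and Psmb7. None of the 3 regulatory particle chaperone genes, whose products leave the particle once it is built, was called by limma (median 0.15). Of these 3, Psmd5 and Psmd10 had an unadjusted p under 0.05.

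**Figure D2:**
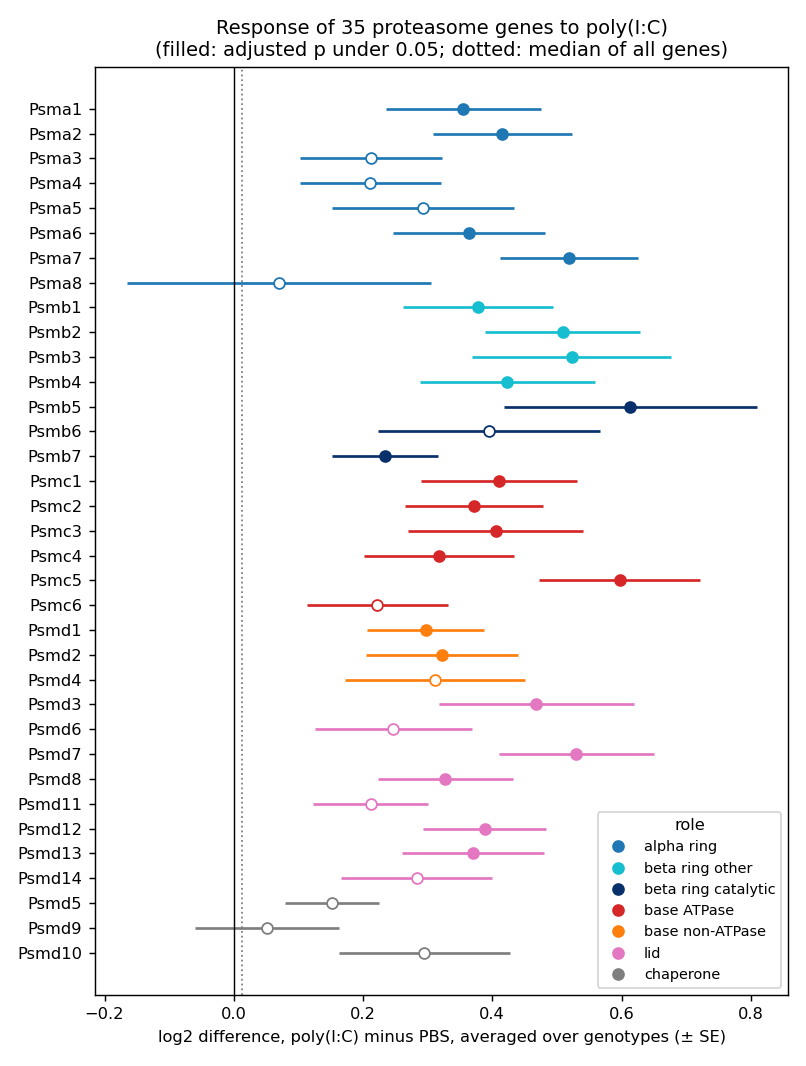
Log2 difference of poly(I:C) minus PBS, averaged over genotypes, for each gene (point) with its SE (bar), ordered and coloured by role. Filled points passed a limma adjusted p under 0.05, the dotted line is the median of all genes, and all 35 points lie right of 0.

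Psmb5 (ENSMUSG00000022193, chromosome 14, 54614119 to 54618022) had the highest difference of the core particle. Psmb5 stood with poly(I:C) at normalized counts of 48.9, 22.8 and 28.8 in FancgKO, 29.95 and 28.3 in FancgKO_Mdm4Tg, 40.0 and 22.5 in Mdm4Tg and 40.4, 17.7 and 30.4 in WT. The PBS libraries had 14.1, 18.6, 27.8 and 32.7 in FancgKO, 29.2, 16.4 and 18.7 in FancgKO_Mdm4Tg, 14.9, 9.82 and 12.6 in Mdm4Tg and 19.1, 31.9, 30.1 and 15.9 in WT. The libraries spanned 17.7 to 48.9 with poly(I:C) (median 29.4) and 9.82 to 32.7 with PBS (median 18.7), so the ranges overlapped, and the PBS values of Mdm4Tg were low as a set. The averaged log2 difference was 0.61 ± 0.20 (SE, n = 10 and 14; limma adjusted p = 0.0283). Its lowest library held 5 reads of it. It was not called when the low-count filter was dropped, nor without the poly(I:C) libraries FancgKO number 6, FancgKO_Mdm4Tg number 8, Mdm4Tg number 7 or WT number 6 (limma adjusted p of 0.0587 to 0.0940).

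Psmb6 (ENSMUSG00000018286, chromosome 11, 70525367 to 70527858) did not pass. Normalized counts of Psmb6 with poly(I:C) were 138, 92.3 and 91.8 in FancgKO, 93.5 and 104 in FancgKO_Mdm4Tg, 109 and 89.3 in Mdm4Tg and 121, 123 and 102 in WT. In PBS libraries Psmb6 had 37.6, 76.4, 105 and 127 in FancgKO, 68.9, 103 and 79.9 in FancgKO_Mdm4Tg, 70.3, 90.4 and 61.6 in Mdm4Tg and 57.2, 128, 93.6 and 63.4 in WT. The libraries spanned 89.3 to 138 with poly(I:C) (median 103) and 37.6 to 128 with PBS (median 78.1). The PBS libraries ranged more widely than those with poly(I:C), with the lowest value in FancgKO number 2 and the highest in WT number 6. Its log2 difference was 0.40 ± 0.17 (SE, n = 10 and 14; limma adjusted p = 0.0965). It passed without FancgKO PBS number 7 (limma adjusted p = 0.0460) or WT PBS number 6 (limma adjusted p = 0.0443).

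Psmb7 (ENSMUSG00000026750, chromosome 2, 38588036 to 38644087) changed little but with a small error. Psmb7 had normalized counts with poly(I:C) of 195, 148 and 203 in FancgKO, 165 and 189 in FancgKO_Mdm4Tg, 184 and 191 in Mdm4Tg and 221, 172 and 216 in WT. PBS gave 169, 139.7, 189.9 and 176 in FancgKO, 156, 155 and 159.8 in FancgKO_Mdm4Tg, 153, 139 and 129 in Mdm4Tg and 181, 199.975, 147 and 155 in WT. The ranges were 148 to 221 with poly(I:C) (median 190.0) and 129 to 199.975 with PBS (median 156) and overlapped. Its log2 difference was 0.23 ± 0.08 (SE, n = 10 and 14; limma adjusted p = 0.0420), a call on the edge of the threshold. In 16 of the 24 fits that each left out 1 library it was not called, with a limma adjusted p of 0.0517 (without FancgKO PBS number 2) to 0.117 (without FancgKO_Mdm4Tg poly(I:C) number 8). The call held without FancgKO poly(I:C) number 7, FancgKO PBS numbers 6 or 7, FancgKO_Mdm4Tg poly(I:C) number 7, Mdm4Tg PBS number 2, WT poly(I:C) number 7, or WT PBS numbers 2 or 6.

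Psmb3 (ENSMUSG00000069744, chromosome 11, 97703399 to 97713500), a structural beta subunit, had the next highest difference of the core. Psmb3 stood with poly(I:C) at normalized counts of 122, 70.6 and 104 in FancgKO, 59.9 and 132 in FancgKO_Mdm4Tg, 89.2 and 100.4 in Mdm4Tg and 128, 94.6 and 123 in WT. With PBS they were 70.5, 63.3, 107 and 68.6 in FancgKO, 76.9, 73.3 and 69.7 in FancgKO_Mdm4Tg, 51.6, 72.7 and 51.6 in Mdm4Tg and 38.1, 88.5, 83.6 and 69.4 in WT. The lowest PBS library was WT number 2, and the highest poly(I:C) library was FancgKO_Mdm4Tg number 8. With 59.9 to 132 with poly(I:C) (median 102) and 38.1 to 107 with PBS (median 70.1) the ranges overlapped. Its log2 difference was 0.52 ± 0.15 (SE, n = 10 and 14; limma adjusted p = 0.0192). Without FancgKO_Mdm4Tg poly(I:C) number 8 it was 0.38 and not called (limma adjusted p = 0.0961).

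Psma4 (ENSMUSG00000032301, chromosome 9, 54950790 to 54958030) and Psma8 (ENSMUSG00000036743, chromosome 18, 14706151 to 14762301) had the lowest differences of the core. Normalized counts of Psma4 with poly(I:C) were 209.7, 116 and 169 in FancgKO, 140.2 and 196 in FancgKO_Mdm4Tg, 157 and 169 in Mdm4Tg and 183, 129 and 181 in WT. The PBS libraries had 127, 129, 156 and 160.1 in FancgKO, 196, 166 and 116 in FancgKO_Mdm4Tg, 117, 134 and 119 in Mdm4Tg and 143, 159, 140.5 and 131 in WT. The ranges were 116 to 209.7 with poly(I:C) (median 169) and 116 to 196 with PBS (median 137), similar at both ends, and the log2 difference was 0.21 ± 0.11 (SE, n = 10 and 14; limma adjusted p = 0.159). Psma8 had normalized counts with poly(I:C) of 10.5, 7.598 and 13.3 in FancgKO, 10.8 and 17.5 in FancgKO_Mdm4Tg, 10.0 and 14.8 in Mdm4Tg and 9.89, 10.4 and 13.1 in WT. In PBS libraries Psma8 had 21.9, 9.31, 13.1 and 6.53 in FancgKO, 13.3, 19.8 and 20.4 in FancgKO_Mdm4Tg, 5.98, 7.86 and 10.1 in Mdm4Tg and 11.4, 15.9, 3.34 and 12.4 in WT. Psma8 spanned 7.598 to 17.5 with poly(I:C) (median 10.6) and 3.34 to 21.9 with PBS (median 11.9), with no separation of the groups, and a log2 difference of 0.07 ± 0.24 (SE, n = 10 and 14; limma adjusted p = 0.855).

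Psmc5 (ENSMUSG00000020708, chromosome 11, 106256154 to 106263120), an ATPase of the base, had the highest difference of the regulatory particle. Psmc5 stood with poly(I:C) at normalized counts of 137, 92.3 and 111 in FancgKO, 103 and 132 in FancgKO_Mdm4Tg, 118 and 101.3 in Mdm4Tg and 116, 109 and 121 in WT. PBS gave 70.5, 63.3, 105 and 91.5 in FancgKO, 47.7, 86.2 and 71.4 in FancgKO_Mdm4Tg, 63.5, 88.4 and 59.1 in Mdm4Tg and 80.1, 108, 87.0 and 61.9 in WT. The lowest poly(I:C) library, FancgKO number 7, lay within the PBS values of FancgKO, while in FancgKO_Mdm4Tg, Mdm4Tg and WT every poly(I:C) library lay above every PBS library of its genotype. How many of all genes separate in this way was not counted, and Psmc5 was picked for its high difference. With 92.3 to 137 with poly(I:C) (median 114) and 47.7 to 108 with PBS (median 75.8) the pooled ranges overlapped. Its log2 difference was 0.60 ± 0.12 (SE, n = 10 and 14; limma adjusted p = 0.00244), and it stayed called whichever library was left out.

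Psmd7 (ENSMUSG00000039067, chromosome 8, 107580381 to 107588464), the lid subunit that pairs with the deubiquitinase, followed. Normalized counts of Psmd7 with poly(I:C) were 246, 127 and 214 in FancgKO, 182 and 242 in FancgKO_Mdm4Tg, 178 and 216 in Mdm4Tg and 231, 145 and 236 in WT. With PBS they were 159.8, 134, 174 and 118 in FancgKO, 133, 127 and 165 in FancgKO_Mdm4Tg, 123, 147 and 116 in Mdm4Tg and 128, 172, 119 and 127 in WT. The groups of FancgKO_Mdm4Tg and Mdm4Tg did not overlap, and those of FancgKO and WT did, through the number 7 poly(I:C) libraries. The share of all genes that separate in this way was not counted. The pooled ranges were 127 to 246 with poly(I:C) (median 215) and 116 to 174 with PBS (median 130.2), and the log2 difference was 0.53 ± 0.12 (SE, n = 10 and 14; limma adjusted p = 0.00406).

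Psmd14 (ENSMUSG00000026914, chromosome 2, 61711694 to 61800376), the deubiquitinase of the lid, was not called. Psmd14 had normalized counts with poly(I:C) of 310.1, 232 and 376.7 in FancgKO, 248 and 426 in FancgKO_Mdm4Tg, 262 and 342 in Mdm4Tg and 317, 219 and 393 in WT. The PBS libraries had 260.0, 242, 283 and 209 in FancgKO, 324, 201 and 301 in FancgKO_Mdm4Tg, 219.7, 261 and 252 in Mdm4Tg and 229, 249, 246 and 264 in WT. In each genotype the library numbered 8 was the highest with poly(I:C). The pooled ranges were 219 to 426 with poly(I:C) (median 314) and 201 to 324 with PBS (median 250.4), and the log2 difference was 0.28 ± 0.12 (SE, n = 10 and 14; limma adjusted p = 0.0805). It was called by edgeR and DESeq2, and by limma without number 7 poly(I:C) of FancgKO, FancgKO_Mdm4Tg or WT (limma adjusted p of 0.0223 to 0.0385).

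Psmd9 (ENSMUSG00000029440, chromosome 5, 123169413 to 123250131) and Psmd5 (ENSMUSG00000026869, chromosome 2, 34849734 to 34874968), both chaperones, had the lowest differences of the regulatory particle. Psmd9 stood with poly(I:C) at normalized counts of 49.4, 49.9 and 53.5 in FancgKO, 46.7 and 62.7 in FancgKO_Mdm4Tg, 38.4 and 51.7 in Mdm4Tg and 51.9, 53.2 and 47.6 in WT. In PBS libraries Psmd9 had 48.6, 39.1, 43.8 and 58.8 in FancgKO, 66.3, 48.3 and 49.3 in FancgKO_Mdm4Tg, 50.8, 35.4 and 60.4 in Mdm4Tg and 47.7, 46.0, 45.2 and 39.6 in WT. With 38.4 to 62.7 with poly(I:C) (median 50.8) and 35.4 to 66.3 with PBS (median 48.0) its groups lay on top of each other, and the log2 difference was 0.05 ± 0.11 (SE, n = 10 and 14; limma adjusted p = 0.762). Normalized counts of Psmd5 with poly(I:C) were 219, 171 and 191 in FancgKO, 156 and 221 in FancgKO_Mdm4Tg, 198 and 182 in Mdm4Tg and 196, 195 and 189.6 in WT. PBS gave 171, 183, 152 and 196 in FancgKO, 188, 162 and 184 in FancgKO_Mdm4Tg, 158, 161 and 161 in Mdm4Tg and 162, 179.6, 169 and 181 in WT. For Psmd5 the ranges were 156 to 221 with poly(I:C) (median 193) and 152 to 196 with PBS (median 169.8), and the log2 difference was 0.15 ± 0.07 (SE, n = 10 and 14; limma adjusted p = 0.128). It passed without FancgKO_Mdm4Tg poly(I:C) number 7 (limma adjusted p = 0.0325).

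Psmd10 (ENSMUSG00000031429, chromosome X, 140948429 to 140956728), the third chaperone, also known as gankyrin, was not called. Psmd10 had normalized counts with poly(I:C) of 54.4, 41.2 and 59.9 in FancgKO, 39.5 and 69.8 in FancgKO_Mdm4Tg, 41.7 and 57.6 in Mdm4Tg and 47.8, 42.9 and 57.6 in WT. With PBS they were 39.2, 37.3, 39.4 and 26.1 in FancgKO, 53.0, 34.5 and 34.0 in FancgKO_Mdm4Tg, 44.1, 43.2 and 42.1 in Mdm4Tg and 64.8, 41.6, 45.2 and 39.6 in WT. The lowest PBS value was FancgKO number 7 and the highest was WT number 2. The ranges were 39.5 to 69.8 with poly(I:C) (median 51.1) and 26.1 to 64.8 with PBS (median 40.6), and the log2 difference was 0.29 ± 0.13 (SE, n = 10 and 14; limma adjusted p = 0.108). It was called by edgeR and DESeq2, and by limma without FancgKO_Mdm4Tg poly(I:C) number 7 (limma adjusted p = 0.0369).

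**Figure D3:**
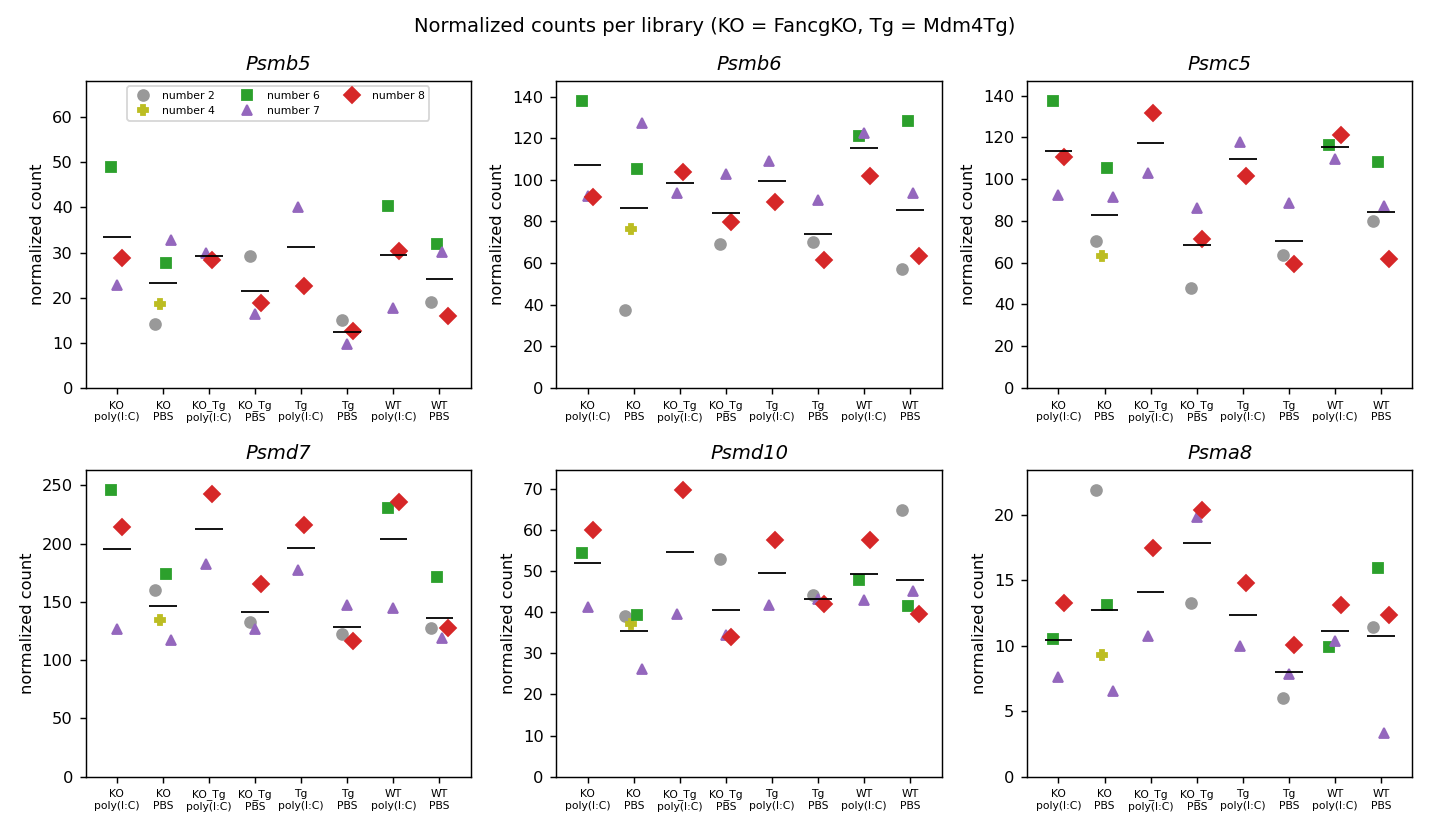
Normalized counts (y axis from 0) of 6 genes in each library, in groups with poly(I:C) left of PBS within each genotype. Points are libraries, marked by their number, and bars are group means. Psmd7 and Psmc5 are higher with poly(I:C) in most libraries, and Psma8 is not.

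In 5 members a match to the antioxidant response element core, TGACNNNGC, lay in the promoter, and in 10 a match to the ETS motif CCGGAAG, read on both strands. RefSeq promoter windows (GRCm38.p6, 250 bases before to 50 after the start site) were found for 28 of 35 genes, in 30 windows. TGACNNNGC was in 17.9% of the matched genes (2 of 11 core and 3 of 17 regulatory), against 13.99% of all 27025 genes with a window. CCAAT was in 39.3% of them and in 41.1% of all. CCGGAAG was in 35.7% of the matched genes (1 of 11 core and 9 of 17 regulatory), against 9.93% of all genes, and lay within 30 bases before the start site in 7 of 28 (1 core and 6 regulatory), against 2.89% of all genes. 0 of 40 matches in these windows overlapped a match to another of the 3 motifs. A match describes letters and is no evidence of binding.

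The stretches below, 100 bases before to 50 after the start site, are shown because they hold a match near the start in genes with high (Psmb5), moderate and low (Psmd9) differences. They are 5′ to 3′ on the gene's strand, and capitals mark the match, TGACNNNGC in Psmb5, Psmb6 and Psmd9 and CCGGAAG or its reverse complement in the rest.
Psmb5, chr14:54617946-54618095, minus strand: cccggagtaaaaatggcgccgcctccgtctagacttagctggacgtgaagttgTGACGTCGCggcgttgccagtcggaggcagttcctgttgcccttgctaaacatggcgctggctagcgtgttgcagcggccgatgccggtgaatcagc
Psmb6, chr11:70525257-70525406, plus strand: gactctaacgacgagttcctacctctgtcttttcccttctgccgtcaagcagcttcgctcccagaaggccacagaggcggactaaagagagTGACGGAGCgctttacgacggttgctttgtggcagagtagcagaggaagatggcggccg
Psmd9, chr5:123228090-123228239, plus strand: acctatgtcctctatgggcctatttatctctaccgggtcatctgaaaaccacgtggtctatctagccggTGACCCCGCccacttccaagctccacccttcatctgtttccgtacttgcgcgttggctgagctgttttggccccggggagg
Psmd12, chr11:107479428-107479577, plus strand: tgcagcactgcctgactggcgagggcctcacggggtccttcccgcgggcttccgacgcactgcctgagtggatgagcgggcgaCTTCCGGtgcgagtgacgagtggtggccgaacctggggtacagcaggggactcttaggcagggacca
Psmd13, chr7:140882294-140882443, plus strand: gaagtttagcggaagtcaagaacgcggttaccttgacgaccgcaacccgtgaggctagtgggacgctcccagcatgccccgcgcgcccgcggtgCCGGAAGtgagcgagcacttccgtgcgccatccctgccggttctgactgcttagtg
Psmd2, chr16:20651552-20651701, plus strand: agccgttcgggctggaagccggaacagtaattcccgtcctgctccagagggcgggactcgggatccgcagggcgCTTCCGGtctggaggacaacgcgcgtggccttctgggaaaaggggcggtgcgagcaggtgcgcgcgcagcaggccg
Psmd11, chr11:80428515-80428664, plus strand: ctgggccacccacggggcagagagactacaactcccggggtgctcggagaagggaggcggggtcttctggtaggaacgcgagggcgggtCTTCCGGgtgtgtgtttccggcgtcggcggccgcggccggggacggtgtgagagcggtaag
Psmc1, chr12:100110102-100110251, plus strand: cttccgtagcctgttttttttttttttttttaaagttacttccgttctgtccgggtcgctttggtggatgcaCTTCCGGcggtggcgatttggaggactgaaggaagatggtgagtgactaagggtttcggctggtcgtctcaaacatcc

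Among the genes with TGACNNNGC in the stretches, Psmb5 had a log2 difference of 0.61, Psmb6 of 0.40 and Psmd9 of 0.05. Among those with CCGGAAG, Psmc1 had 0.41, Psmd12 0.39, Psmd13 0.37, Psmd2 0.32 and Psmd11 0.21, and Psmd11 was not called. Psma6, of the core, and Psmc2 also held CCGGAAG within 30 bases before the start site, and their stretches are not shown. Psma6 had 0.36 and Psmc2 0.37, and both were called. These are averaged differences of poly(I:C) minus PBS.

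The response differed in size between libraries of different numbers. Within pairs of libraries with the same genotype and number, poly(I:C) minus PBS, the median over the 35 genes was 0.55 in FancgKO_Mdm4Tg, 0.54 in Mdm4Tg and 0.74 in WT for number 8, with 34, 34 and 35 genes higher. For number 6 it was 0.26 in FancgKO and 0.20 in WT, with 32 and 31 genes higher. For number 7 it was -0.04 in FancgKO, 0.10 in FancgKO_Mdm4Tg, 0.29 in Mdm4Tg and 0.15 in WT, with 16, 26, 34 and 23 genes higher. All-gene medians in these 9 pairs lay between -0.01 and 0.01, and 48.95% to 51.62% of all genes were higher. Psma1, Psmc4, Psmc5, Psmd3, Psmd7, Psmd11 and Psmd12 were higher in 9 of 9 pairs. Their smallest pair differences ran from 0.0024 (Psmd11) to 0.11 (Psmd7). The share of all genes higher in 9 of 9 pairs was not counted.

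**Figure D4:**
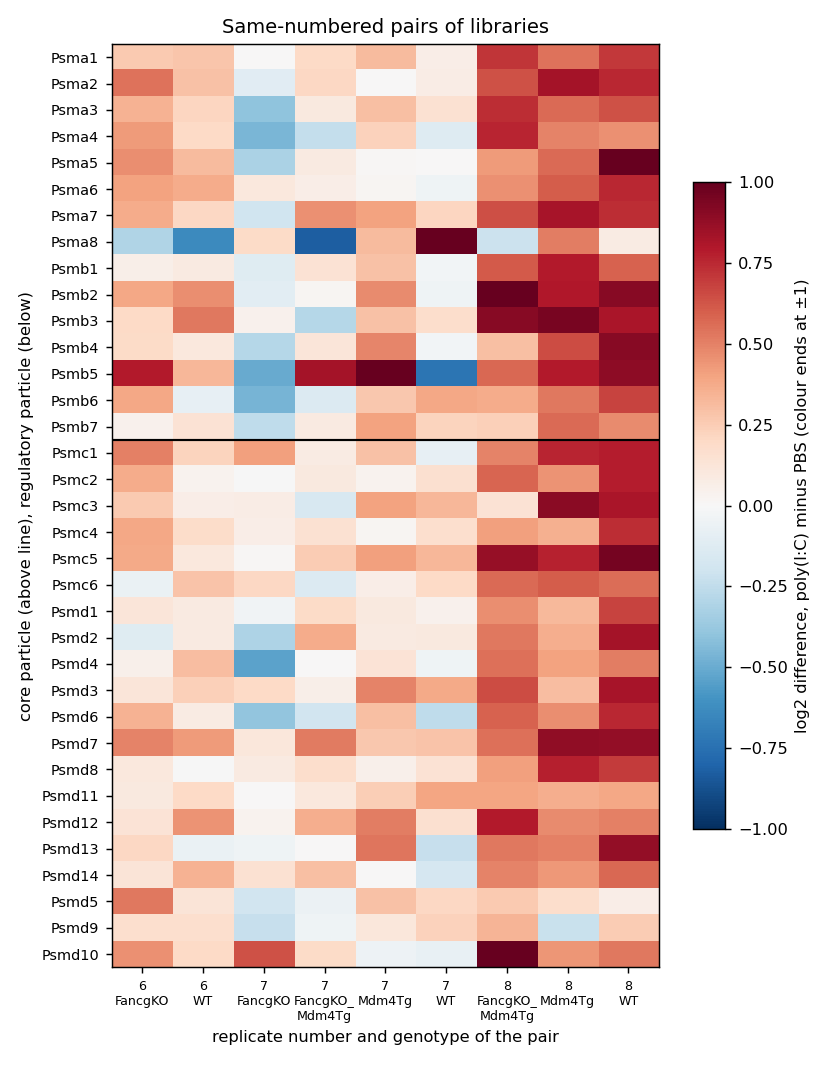
Log2 difference of poly(I:C) minus PBS for each gene (rows, core above the line) in 9 pairs of libraries with one genotype and number (columns, in order of number). Colour is red for higher and blue for lower with poly(I:C), and the 3 pairs numbered 8 are red in nearly every row.

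Libraries that share the title ending were set apart from the others, after seeing the data. With the ending, 4 poly(I:C) libraries had a summed count of the 35 genes of 7004.9 to 8226.2 and 8 PBS libraries of 4716.8 to 5613.7, with no overlap. The limma fit within them had a positive difference for 35 of 35 and a median of 0.56. It held 1 poly(I:C) library per genotype, so its estimate of spread came from the PBS libraries alone, and its calls are not given. Without the ending, 6 poly(I:C) libraries spanned 5620.4 to 7870.0 and 6 PBS libraries 5197.6 to 6700.2. That fit called 0 of 35, against 0% of all genes, with a positive difference for 34, an unadjusted p under 0.05 for 1 and a median of 0.14. With the ending as a covariate 28 rose (median 0.34), against 18.4% of all genes. The myeloid progenitor markers summed to 8655 to 13970 with poly(I:C) and 1481 to 3351 with PBS among libraries with the ending, and to 5830 to 23190 with poly(I:C) and 3741 to 13910 with PBS among those without. Depth with the ending was 5491225 to 8229715 reads with poly(I:C) and 949156 to 4801746 with PBS. The part of the markers and of depth in this split was not tested. Depth was varied only in the fit of all libraries with thinned reads, given above, which called 15 with a median of 0.37.

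The summed counts of both particles had higher medians with poly(I:C). The summed core count was 2195.8 to 3556.0 with poly(I:C) (median 2972.9) and 1856.5 to 2725.3 with PBS (median 2207.0). For the regulatory particle the sums were 3319.9 to 4670.2 with poly(I:C) (median 4148.6) and 2860.3 to 3997.9 with PBS (median 3148.5). The core took 39.1 to 43.2% of the summed count with poly(I:C) and 38.6 to 43.1% with PBS. The highest PBS sums were the number 6 libraries, 6700.2 in FancgKO and 6532.8 in WT, which also had the highest PBS sums of myeloid progenitor markers, 13910 and 12630. The mean log2 level of the core minus that of the regulatory particle changed by 0.04 with poly(I:C), averaged over genotypes, against a pooled SD between replicates of 0.0726. The genotypes differed in sign. Its group means were -0.25 with poly(I:C) and -0.43 with PBS in Mdm4Tg, and -0.24 with poly(I:C) and -0.29 with PBS in WT. They were -0.32 with poly(I:C) and -0.31 with PBS in FancgKO, and -0.23 with poly(I:C) and -0.17 with PBS in FancgKO_Mdm4Tg.

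**Figure D5:**
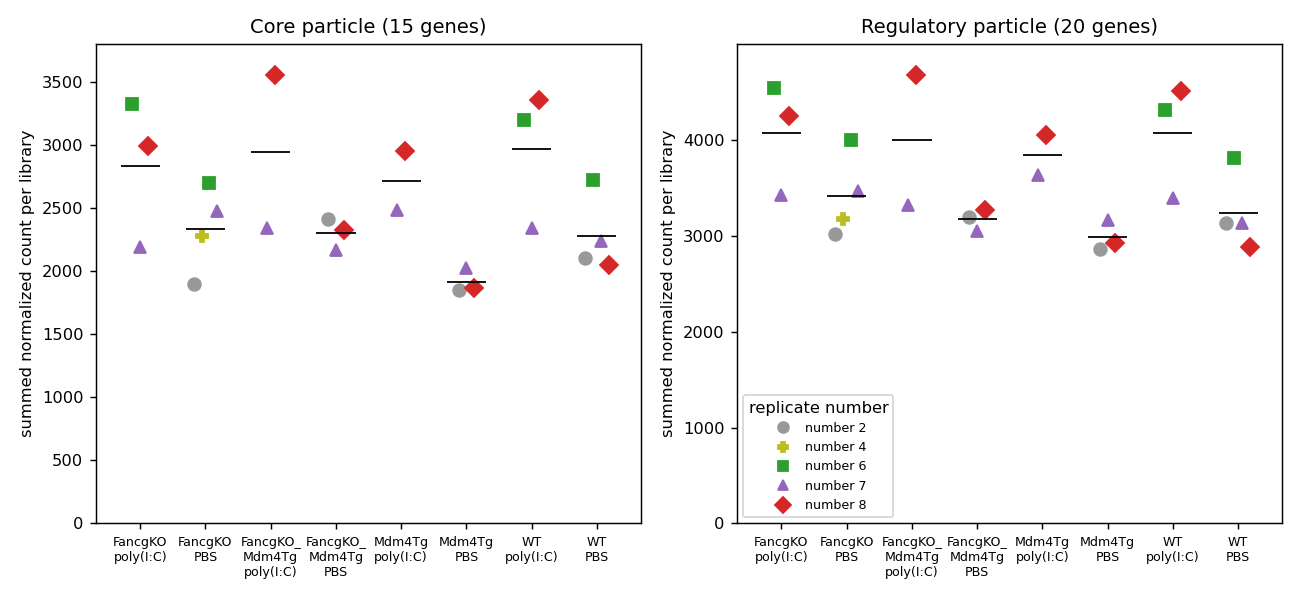
Summed normalized count (y axis from 0) of the 15 core genes (left) and the 20 regulatory genes (right) in each library, with poly(I:C) left of PBS within each genotype. Points are libraries marked by number and bars are group means. The number 8 and number 6 libraries with poly(I:C) lie above the number 7 libraries.

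Within single genotypes no gene was called by limma without the replicate block. In WT the median difference was 0.31, with 35 of 35 genes higher, 0 called against 0.0158% of all genes, and 9 with an unadjusted p under 0.05. In FancgKO it was 0.29, with 34 higher, 0 called against 0% of all genes, and 2 with an unadjusted p under 0.05. In FancgKO_Mdm4Tg it was 0.35, with 34 higher, 0 called against 0% and 3 with an unadjusted p under 0.05. In Mdm4Tg it was 0.42, with 34 higher, 0 called against 0% and 12 with an unadjusted p under 0.05. edgeR and DESeq2 on the recovered reads also called 0 in each of these.

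In WT the replicate numbers paired the samples. A limma fit with the number as a block gave an unadjusted p under 0.05 for 16 of 35 genes. It called 2 of 35, against 3.25% of all genes. These were the lid genes Psmd3 at 0.49 ± 0.13 (SE, n = 3 and 4; limma adjusted p = 0.02495) and Psmd7 at 0.53 ± 0.15 (limma adjusted p = 0.0343). In Mdm4Tg, which did not count as paired, the block called 2 of 35, against 2.28% of all genes that rose. They were Psma7 at 0.58 ± 0.16 (SE, limma adjusted p = 0.0406) and Psmd7 at 0.62 ± 0.18 (SE, limma adjusted p = 0.0491). Several medians moved by over 1.5 times with single libraries. The FancgKO_Mdm4Tg median was 0.07 without its poly(I:C) library number 8 and 0.58 without number 7, each leaving 1 library that was assumed to vary like the others. The FancgKO median was 0.18 without poly(I:C) number 6 and 0.19 without PBS number 2, and the WT median was 0.49 without poly(I:C) number 7. Without the WT PBS number 6 library 1 gene was called in WT, the base ATPase gene Psmc2 at 0.66 ± 0.19 (limma adjusted p = 0.0467). The share of all genes called in WT in that fit was not counted. Xist, the RNA of the inactive X chromosome, was above 100 in 6 libraries and at most 24.8 in the other 18. The 6 were numbers 6 and 7 of FancgKO with PBS, of FancgKO with poly(I:C) and of WT with poly(I:C). Without them the medians were 0.51 in WT and 0.51 in FancgKO, each with only the number 8 poly(I:C) library left.

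No difference in the poly(I:C) response between genotypes passed the test. For each gene the response in the mutant minus the response in WT was tested, and limma called 0 of 35 in FancgKO, in FancgKO_Mdm4Tg and in Mdm4Tg, against 0% of all genes in each. The unadjusted p was under 0.05 for 0 genes, and DESeq2 and edgeR made 0 calls. With the replicate number as a block limma also made 0 calls, against 0% of all genes in each. The unadjusted p was then under 0.05 for 1 gene, in the Mdm4Tg difference. The medians of these differences were -0.08 for FancgKO, -0.02 for FancgKO_Mdm4Tg and 0.12 for Mdm4Tg. The FancgKO_Mdm4Tg value ran from -0.32 to 0.23 when single libraries were left out, at those ends without poly(I:C) number 8 and number 7. The Mdm4Tg value was -0.05 without the high-Xist libraries, where WT kept only poly(I:C) number 8, and -0.02 without WT poly(I:C) number 7. The FancgKO value was 0.05 without FancgKO poly(I:C) number 7. Psmb5 had the highest difference for Mdm4Tg, 0.97 ± 0.55 (SE; limma adjusted p = 1).

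Loss of Fancg left no called change in these genes. In FancgKO against WT with PBS limma called 0 of 35, against 0% of all genes, with a median difference of 0.06 and 0 unadjusted p under 0.05. The smallest p without the replicate block was that of Psmd10, at -0.41 ± 0.22 (SE, n = 4 and 4; limma adjusted p = 0.999). Its values were 39.2, 37.3, 39.4 and 26.1 in FancgKO and 64.8, 41.6, 45.2 and 39.6 in WT, with FancgKO number 7 lowest and WT number 2 highest, each apart from the rest of its group. Without that library and the others in turn, the median over the 35 genes ran from -0.02 (without FancgKO number 6) to 0.11, and it was -0.08 without the high-Xist libraries. Under poly(I:C), FancgKO against WT had 0 of 35 called, against 0%, a median of -0.02 and 0 unadjusted p under 0.05. That median was 0.12 without FancgKO number 7, 0.03 without WT number 6 and 0.04 without WT number 8. These comparisons share no libraries. Neither DESeq2 nor edgeR called a gene in them. With the replicate number as a block limma also called 0 of 35 in each. Of all 12628 genes, 2 were then called higher and 2 lower with PBS, and 0% with poly(I:C). The unadjusted p was then under 0.05 for 2 higher and 1 lower of the 35 with PBS, and for 0 with poly(I:C).

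The transgene on the FancgKO background likewise gave no call. FancgKO_Mdm4Tg against FancgKO with PBS had 0 of 35 called, against 0.00792% of all genes, and a median of -0.05. Psmd4, a ubiquitin receptor of the base, had the only unadjusted p under 0.05, at -0.54 ± 0.25 (SE, n = 3 and 4; limma adjusted p = 0.931). FancgKO_Mdm4Tg against WT with PBS had 0 of 35 called, against 0.00792%, a median of -0.01 and 0 unadjusted p under 0.05. These medians turned to 0.08 for the comparison with FancgKO without the high-Xist libraries and 0.02 without FancgKO number 6, and to 0.07 for that with WT with the replicate block and 0.09 without WT number 6. Both count tools, edgeR and DESeq2, made 0 calls in each. With the replicate block, FancgKO_Mdm4Tg against WT had 0 of 35 called, against 0.00792% of all genes higher and 0% lower. The unadjusted p was then under 0.05 for 2 of the 35, in the higher direction.

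In Mdm4Tg against WT with PBS most genes leaned one way. The fitted difference was negative for 33 of 35 genes, against 49.5% of all genes, with a median of -0.18 (core -0.26, regulatory -0.10), and limma called 0 of 35, against 0.00792% of all genes. edgeR and DESeq2 also called 0. With the replicate number as a block 27 of 35 were negative (median -0.13), and in FancgKO against WT with PBS, 28 of 35 were then positive (median 0.09). In Mdm4Tg against WT the block fit called 0 of 35, against 0.00792% of all genes higher and 0% lower. Its unadjusted p was under 0.05 for 1 of the 35, in the lower direction. In the fit without the block Psmb5 had the smallest p and the only unadjusted p under 0.05, at -0.87 ± 0.36 (SE, n = 3 and 4; limma adjusted p = 0.999). Its counts in single libraries were 14.9, 9.82 and 12.6 in Mdm4Tg and 19.1, 31.9, 30.1 and 15.9 in WT, and the groups did not overlap. The library at 9.82 held 5 reads of Psmb5. The share of all genes whose groups do not overlap was not counted, and Psmb5 was picked for its small p. Within the shared numbers 2, 7 and 8, 26, 22 and 24 genes were lower in Mdm4Tg, against 49.9%, 49.8% and 51.0% of all genes, with medians of -0.17, -0.07 and -0.07. The WT number 6 library, which has no Mdm4Tg partner, had the highest summed count of its group, 6532.8, against 5233.5, 5374.7 and 4930.7 in WT numbers 2, 7 and 8.

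In the same comparison the balance between the particles lay apart. The mean log2 level of the core minus that of the regulatory particle was -0.44, -0.44 and -0.42 in Mdm4Tg with PBS and -0.38, -0.22, -0.31 and -0.23 in WT with PBS. The groups did not overlap, but their nearest libraries, at -0.42 and -0.38, lay close beside a pooled SD between replicates of 0.0726. Restricted to the 13 core genes with a mean of at least 50 and the 17 regulatory genes without the chaperones, the difference was -0.10, -0.12 and -0.09 in Mdm4Tg and -0.09, -0.04, 0.02 and 0.05 in WT. The nearest libraries then almost met, at -0.0944 in Mdm4Tg and -0.0919 in WT. The unrestricted difference with poly(I:C) was -0.28 and -0.22 in Mdm4Tg and -0.21, -0.31 and -0.19 in WT, which overlapped. The value is a score over chosen genes and was given no test.

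Other genes of the ubiquitin and proteasome system, 33 of 35 listed being measured, followed the same direction. In the comparison averaged over genotypes, 10 of 33 rose and 0 fell by limma, against 11.9% of all genes that rose. A positive difference was found for 31 of 33, against 51.8% of all genes, and the median was 0.28. The immunoproteasome gene Psmb8 rose by 0.40 ± 0.14 (SE; limma adjusted p = 0.0489), whereas Psmb9 had 0.27 ± 0.10 (adjusted p = 0.0531, limma) and Psmb10 0.38 ± 0.27 (adjusted p = 0.320, limma). Mean normalized counts of Psmb8 were 342, 347, 308 and 356 with poly(I:C) in FancgKO, FancgKO_Mdm4Tg, Mdm4Tg and WT, and 330.3, 257, 215 and 259 with PBS in the same order. Of the activators Psme1 and Psme2, subunits of the interferon-inducible cap, the differences were 0.15 and 0.31 and neither passed, and Psme3, which caps the core in the nucleus, rose by 0.38 (limma adjusted p = 0.00660).

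Of the core assembly chaperones, Pomp rose by 0.29 (limma adjusted p = 0.0320) and Psmg1 by 0.36 (limma adjusted p = 0.0226), and Psmg2, Psmg3 and Psmg4 had differences of 0.28, 0.37 and 0.41 that did not pass. The regulatory particle partners Sem1, a small lid subunit, Txnl1 and Usp14, a proteasome-bound deubiquitinase, rose by 0.47, 0.37 and 0.32. Vcp, the unfoldase upstream of the proteasome, Uba1, the ubiquitin-activating enzyme, and the ubiquitin gene Rps27a rose by 0.25, 0.27 and 0.32. Nfe2l1, the transcription factor that raises proteasome genes when proteasome activity falls, had a difference of 0.15 ± 0.09 (SE; limma adjusted p = 0.214) and did not pass. Psmf1, an inhibitor of the core, and Ngly1, the enzyme that removes glycans from Nfe2l1, were the genes with a negative difference, -0.09 and -0.19, and neither passed.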

How the data were processed

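LSK libraries (24 in 8 groups) were analysed from a deposited table whose signal values are normalized counts per gene and library, as the authors deposited them. STAR and mm10 are listed per the submitters' processing notes. The counter, the normalization tool and any use of molecular identifiers are not given in the sources used here. All values of a column are whole multiples of 1 step, which gives back whole read counts for 100% of values (relative tolerance 1e-06). Symbols came from the file for 16217 rows and from the GRCm38 annotation for 10006, and 44 stayed unnamed.

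The 12628 genes that reached 10 in 2 or more libraries were tested. A limma 3.58.1 model of the 8 groups (R 4.3.3, mean-variance trend, 2-sided) was run on log2(value + 1), with Benjamini-Hochberg adjustment over these genes and a threshold of 0.05. The code was tested on simulated data. edgeR 4.0.16 and DESeq2 1.42.0 on recovered reads were alternatives. They called 25 and 24 of the 35 genes higher in the averaged comparison, against 14.4% and 13.9% of all genes. Tables used python 3.11.15, pandas 2.3.3, numpy 2.4.6 and matplotlib 3.10.9. Members and lists were chosen with earlier results of these data known. Values in every library are given for the catalytic genes, Psmd14, the 2 highest and 2 lowest averaged differences of each particle and the smallest p of the FancgKO and Mdm4Tg comparisons with PBS. Psma7, Psmd12 and other genes named beside them fall outside that rule and were named for counts or promoters.

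Same-numbered libraries correlated, after group means were removed, at a median of 0.343 over 61 pairs, against -0.163 over 189 others. Comparisons with at least 3 shared numbers and every correlation above 0.1 counted as paired: the WT response to poly(I:C) (correlations of 0.231 to 0.448), the FancgKO comparison with WT under poly(I:C) (0.392 to 0.617) and under PBS (0.218 to 0.528), the PBS comparisons of Mdm4Tg (0.293 to 0.378) and FancgKO_Mdm4Tg (0.248 to 0.389) with WT, and the differences in response for these 2 genotypes. Values in the text come from the fit without the replicate block unless the block is named. Counts for genes with pseudogenes could share reads; the 3 listed pseudogenes of the 35 genes reached at most 2.65. Intervals cover counting error only.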

Additional observations from a re-analysis of the deposited data

Results flagged for a closer look

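Psmd10 in FancgKO with PBS had a library far from the others. Replicate number 7 stood at 4.76 on the log2 scale and the nearest of the other 3 at 5.26, and the gap was 0.861 of the group's range, above the critical value of 0.829 for 4 libraries. This library was the shallowest of the series with 807686 reads. Psmd10 had 8 reads in it, a normalized count of 26.1 with an exact Poisson 95% interval of 11.3 to 51.5. Of 72 combinations tested, the 35 genes and their mean in each group of 4 libraries, 1 was picked out, and chance picks out about 1 in 20 groups.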

How the results depend on the processing

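Members higher in the averaged comparison were 22 of 35, against 11.9% of all genes. They numbered 20 (11.8% of all genes) and 22 (12.2%) with pseudocounts of 0.5 and 5, and 22 (12.6%) with TMM. A filter of 50 gave 21 (15.5%) and no trend gave 18 (10.9%). Without the high-Xist libraries, which left 1 poly(I:C) library in WT and in FancgKO, the median was 0.44. It was 0.24 without the number 8 poly(I:C) libraries and 0.49 without those numbered 7. Each of these 2 fits left 1 poly(I:C) library in FancgKO_Mdm4Tg and in Mdm4Tg. The count was 12 with no filter (4.63%), where every gene enters the adjustment. The count was 23 without the PBS libraries numbered 6 (15.4%) and 15 with thinned reads (7.21%). Within the libraries lacking the title ending it was 0 with a median of 0.14, and within those with it the median was 0.56. Leaving out 1 library gave 5 to 25, with medians of 0.30 to 0.41. In WT, 2 members were called with the replicate block (3.25% of all genes higher), 2 without the number 6 PBS libraries, and 0 to 1 without 1 library. The share of all genes called in WT was not counted in the fits that left libraries out. With the replicate block 26 were called in the averaged comparison, where the numbers did not pair all libraries (2019 of 12628 genes higher), and 2 in Mdm4Tg, and the block changed no other count of members. It added Psma3 (0.29), Psmc6 (0.25), Psmd10 (0.41), Psmd11 (0.24) and Psmd14 (0.26) to the called members and dropped Psmd2 (0.22, limma adjusted p = 0.0633).

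Medians of 0.51 (WT) and 0.51 (FancgKO) were found without the high-Xist libraries, which left only the number 8 poly(I:C) library in each. The FancgKO_Mdm4Tg response had a median of 0.071 without the number 8 and 0.58 without the number 7 poly(I:C) libraries, the same values that leaving out 1 library gave at the extremes, and its difference from WT had -0.21 without number 8 and ran from -0.32 to 0.23. The fitted difference of Psma8 turned to -0.15 and that of Psmd9 to -0.050 without the number 8 libraries, and that of Psma8 to -0.047 within libraries lacking the ending. Leaving out 1 library gave -0.037 to 0.15 for Psma8 and -0.0014 to 0.10 for Psmd9. The cause was not tested. Low counts limit Psma8 and Psmb5, whose fewest reads in a library were 2 and 5. The medians of the genotype comparisons and of the differences in response changed sign under several settings, as given beside them for FancgKO and FancgKO_Mdm4Tg with PBS, FancgKO with poly(I:C) and the responses of FancgKO, FancgKO_Mdm4Tg and Mdm4Tg minus WT.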
